A study of Homo sapiens with 6 samples.

Results

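The 54 genes described here code for the protein cores of proteoglycans and for enzymes that build, sulfate and trim their heparan sulfate and chondroitin or dermatan sulfate chains. They were listed by symbol, and a gene counted as measured where the array had a probe set annotated to that symbol alone. By this rule 53 of the 54 were measured, through 121 probe sets, out of 19775 genes measured in all. NDST2 is not analysed here. The measured genes were 23 core proteins and 30 enzymes.

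Transcript levels were measured on 6 one-colour arrays. One group was mesodermal progenitors grown from H9, an established human embryonic stem cell line, in Stemline II medium to which the growth factors activin A, BMP4, VEGF and FGF2 had been added. They were collected by flow sorting at day 3.5 as cells negative for CD326, the epithelial antigen EPCAM, and positive for CD56, the adhesion molecule NCAM1. The group they were set against was undifferentiated H9 cells (hESC). Each group had 3 arrays. Both groups derive from the same cell line. Nothing in the labels tells separate cultures from repeats of 1 culture, so a p-value reflects the spread among 3 arrays of a group, and that spread may be technical. The labels give no sort for the hESC, and the sort by 2 surface antigens means that the progenitors are a selected share of the day 3.5 culture.

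A proteoglycan is a protein that carries long, negatively charged sugar chains. The chains start from a xylose on a serine of the core protein, are lengthened as heparan sulfate or as chondroitin sulfate, and are then sulfated in patterns. Heparan sulfate binds FGF, BMP, WNT and VEGF proteins and acts as a co-receptor for FGF, and small leucine-rich proteoglycans bind collagen fibrils and growth factors of the TGF-beta family. The sulfation pattern sets which proteins a chain can hold, and in mouse it is known to change when pluripotent cells differentiate.

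Of the 53 genes, 22 were higher in progenitors, 14 were lower and 17 did not pass the test (limma, adjusted p under 0.05 over all genes). The called share of 67.9% stands beside 47.8% of all 19775 genes, of which 26.7% were higher and 21.2% lower. At a change of at least 2-fold, 12 of the 53 genes were higher and 7 lower, together 35.8%, beside 16.6% of all genes (9.39% higher and 7.22% lower). The median log2 change was 0.12 over the 53 genes and 0.04 over all genes. The progenitor and hESC arrays did not overlap in 38 of the 53 genes, beside 11336 of all 19775 genes. Progenitors had 8 of the 23 core proteins higher and 6 lower, and 14 of the 30 measured enzymes higher and 8 lower. The division between higher and lower rests in part on how arrays are scaled to each other. It was 18 higher and 18 lower when each array was centred on its median gene, beside 3826 and 6436 of all genes. It was 30 higher and 8 lower, beside 9405 and 1861 of all genes, when each array was scaled on its hybridization controls. That scaling also moved the median of all genes to 0.35.

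**Figure D1:**
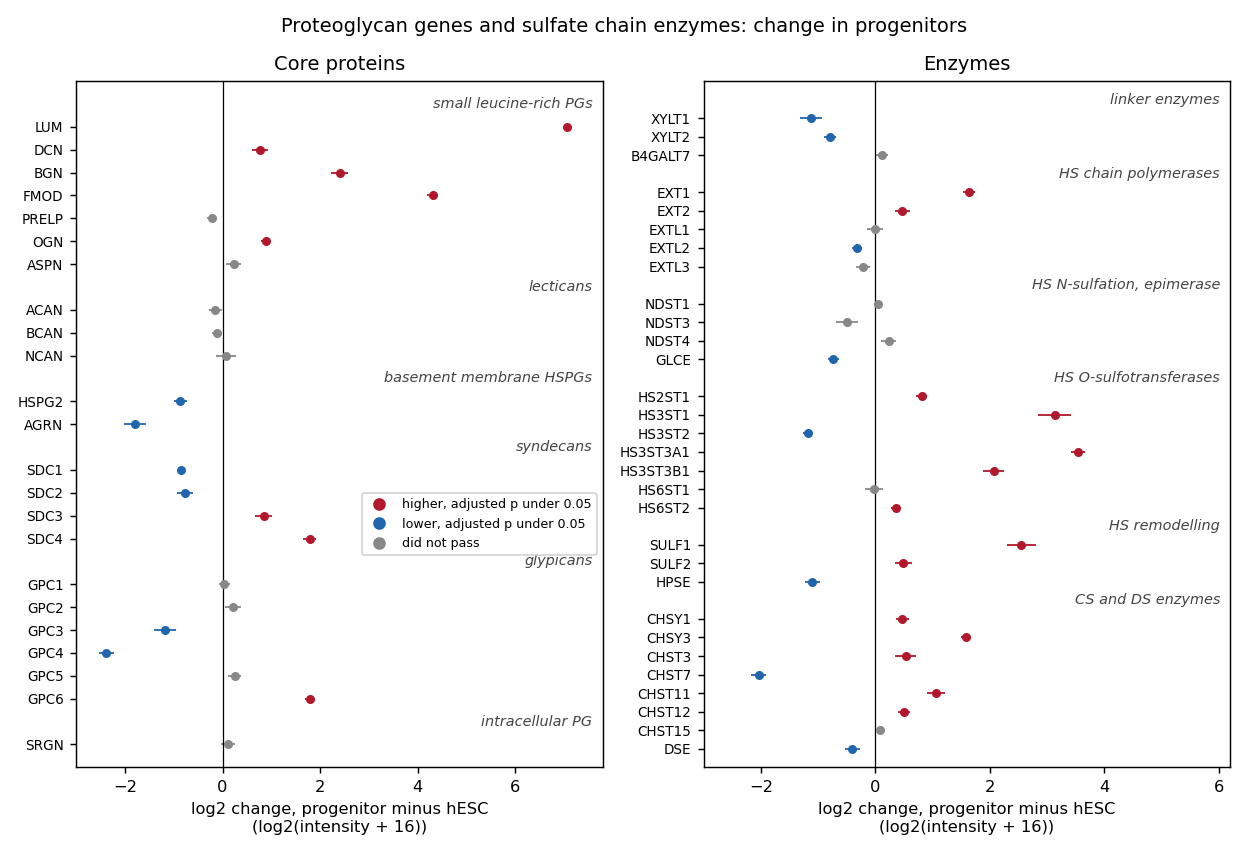
Log2 change, progenitor minus hESC, of the 23 core proteins (left) and the 30 measured enzymes (right), grouped by role from top to bottom; points are changes from 3 arrays a group, bars are standard errors, and colour gives the call at an adjusted p under 0.05 in limma. LUM at 7.06 lies farthest right and GPC4 at -2.38 farthest left, and the blue points of EXTL2 and DSE move to above 0 when arrays are scaled on hybridization controls.

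Levels below are the deposited intensities of arrays 1, 2 and 3 of each group. Each change is a difference of means on the scale of log2(intensity + 16) after quantile normalization, with its standard error and Benjamini-Hochberg adjusted p from limma, for 3 arrays per group. Changes of dim genes are understated on this scale. Intensities are not set against each other across genes, since probe sets differ in brightness. Gene positions are those of RefSeq on GRCh38.p14. In bulk RNA, fewer cells that express a gene and less of its RNA per cell cannot be told apart.

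Marker genes outside the list check the labels. The 7 measured pluripotency markers of a list of 8 summed to intensities of 8002 to 8294 in progenitors and 30883 to 34064 in hESC, with NANOG at a log2 change of -4.17, and all 8 mesoderm markers rose, with summed intensities of 14152 to 14375 in progenitors and 203 to 299 in hESC and TBXT at a log2 change of 3.13. Array medians were 30.98 to 31.24 in progenitors and 33.11 to 36.11 in hESC. Progenitor array 1 stood apart from progenitor arrays 2 and 3, which were the closest pair of arrays (7 genes over 2-fold apart, against 208 and 180 between array 1 and each of them). Endothelial and blood markers were higher on array 1 than on arrays 2 and 3 averaged for 8 of 8 genes, with a median log2 difference of 1.61, and summed to 6385, 2034 and 2202 on progenitor arrays 1 to 3, against 605, 621 and 678 on the hESC arrays. CDH5, the adhesion molecule of endothelial cells, was at 1012, 102 and 121 in progenitors and 1.4, 1.9 and 2.38 in hESC. Against hESC 6 of the 8 endothelial and blood markers were higher and 0 lower. PECAM1 (-0.01) and ESAM (1.24) did not pass, and PECAM1 was only 0.05 higher on array 1. TEK was at 2021, 963 and 991 in progenitors and 455, 472 and 518 in hESC, most of the hESC sums. Fibroblast markers summed to 10793 to 10899 in progenitors and 6913 to 8867 in hESC, with 3 of the 8 higher and 2 lower. Extraembryonic markers summed to 9219 to 9998 in progenitors and 401 to 475 in hESC, with 6 of the 8 higher and 1 lower. Of the fibroblast list COL3A1, PDGFRB and COL1A2 rose, by 4.92, 2.46 and 0.53 on the log2 scale. THY1 and POSTN of that list fell, with changes of -1.99 and -0.37, and COL1A1 and S100A4 did not pass. FAP was near the floor in every array, at 3.5 to 5.52 in progenitors and 2.78 to 4.54 in hESC. Of the extraembryonic list HAND1, which the mesoderm list also holds, rose by 7.54, GATA3 by 5.11, TFAP2A by 4.19, IGFBP3 by 2.33, KRT7 by 2.01 and GABRP by 1.04. HAND1 alone was at 6791, 6514 and 6744 in progenitors, most of the summed intensity. TFAP2C fell, with a change of -0.66. IGFBP3 was at 184, 702 and 702 in progenitors, lowest on array 1. The placental hormone gene CGA was at 6.22 to 9.09 in progenitors and 5.66 to 6.83 in hESC. Endoderm markers summed to 814 to 1119 in progenitors and 62.5 to 80.7 in hESC, with 4 of the 6 measured higher. GATA4 rose by 4.89, SOX17 by 2.36, CXCR4 by 1.80 and FOXA2 by 0.50, while FOXA1 and TTR did not pass. GATA4 alone was at 768, 532 and 542 in progenitors, most of the summed intensity there. Neuroectoderm markers summed to 3288 to 3944 in progenitors and 3248 to 3699.6 in hESC, with 2 of the 8 higher and 1 lower. LHX2 rose by 1.67 and NES by 0.42, and OTX2 fell, with a change of -0.80. PAX6, SOX1, ZIC1, SIX3 and POU3F2 did not pass. LHX2 was at 136, 37.5 and 46.7 in progenitors and 8.31, 8.65 and 13.4 in hESC, highest on progenitor array 1. The part that these other cell types have in the changes below was not tested.

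Small leucine-rich proteoglycans were higher in progenitors for 5 of 7 genes, none was lower, and the changes of lumican and fibromodulin were the highest of all 53 genes. These secreted proteins sit on collagen fibrils and space them. Lumican, LUM (chr12:91102629-91111494), was at 2476, 2159 and 2179 in progenitors, against 1.93, 1.8 and 1 in hESC, where it lay at the floor of the table. The groups were far apart and each was tight. The change was 7.06 ± 0.09 (adjusted p = 3.5e-08) and its size depends on the pseudocount, while the dimmer probe set of the gene rose by 1.62. Fibromodulin, FMOD (chr1:203340628-203351122), which binds collagen type I as lumican does, was at 1329, 1442 and 1476 in progenitors, against 69.5, 63.7 and 49.5 in hESC. Every progenitor array was above every hESC array, and the change was 4.31 ± 0.11 (adjusted p = 2.7e-07). Biglycan, BGN (chrX:153494980-153509546), a chondroitin or dermatan sulfate proteoglycan of bone and cartilage, was at 320.1, 229 and 254 in progenitors, against 35.0, 30.7 and 50.9 in hESC. All progenitor arrays were above all hESC arrays, and the change was 2.40 ± 0.18 (adjusted p = 3.5e-05). A further BGN probe set rose by 2.46, and the dimmest one stood at 0.15 and did not pass. All 3 have names that mark a possible match to several transcripts, so BGN was not tested without such probe sets.

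The other small leucine-rich genes were dim or their probe sets differed. Osteoglycin, OGN, known from bone and from the corneal stroma, was at 19.0, 12.7 and 20.4 in progenitors and 1.93, 3.02 and 2.33 in hESC. Its change was 0.89 ± 0.11 (adjusted p = 0.000434), and the dimmer OGN probe set did not pass at 0.19. Decorin, DCN, a binder of collagen and of TGF-beta, was at 45.8, 54.4 and 35.9 in progenitors and 18.0, 19.1 and 29.6 in hESC, a change of 0.77 ± 0.16 (adjusted p = 0.0059). That call rests on 1 of its 7 probe sets. The other DCN probe sets did not pass, the mean of all 7 stood at 0.11 with an adjusted p of 0.309, and the change turned to -0.18, not called, without the DCN probe sets whose names mark a possible match to several transcripts. PRELP, a protein that links basement membranes to the matrix below, was at 265, 319 and 308 in progenitors and 339.6, 322 and 346 in hESC on its brightest probe set, with a change of -0.21 ± 0.10 (adjusted p = 0.142) that did not pass. Its other probe sets both rose, by 2.38 and 1.81. The first of these was at 103, 120.1 and 111 in progenitors and 9.57, 10.1 and 7.26 in hESC, and the mean over the PRELP probe sets rose by 1.33 with an adjusted p of 1.5e-05 in limma. Asporin, ASPN, was at 12.4, 6.54 and 4.21 in progenitors and 8.11, 4.33 and 1.82 in hESC, with a change of 0.23 ± 0.16 (adjusted p = 0.29).

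The start region of FMOD is shown because this gene rose on its single probe set and has a RefSeq window. The window runs from 250 bases before the annotated start to 50 after it, on the minus strand at chr1:203351073-203351372, and capitals mark CG dinucleotides.
FMOD: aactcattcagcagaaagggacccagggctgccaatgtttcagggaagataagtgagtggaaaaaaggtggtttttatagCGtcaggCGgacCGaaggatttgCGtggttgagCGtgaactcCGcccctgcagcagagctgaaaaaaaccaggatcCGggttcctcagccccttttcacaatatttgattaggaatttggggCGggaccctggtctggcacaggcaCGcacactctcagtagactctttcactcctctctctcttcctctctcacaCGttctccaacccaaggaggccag
It has 10 CG dinucleotides and 52.3% G and C. Windows of the other small leucine-rich genes in the table held 19 in BGN, 3 in ASPN, 1 in PRELP and 0 in each of the OGN windows. The median was 24.5 over 60 windows of 44 of the listed genes, and 14 over all 35116 windows of the table. Motifs were searched by their letters on both strands. The core of GATA factor motifs, AGATAA, is found in FMOD at position -204 from the start and in 10.33% of all windows, and among the listed genes in HS6ST2 and SULF2 as well. A match to the TATA box letters, TATAAA, starts at -177 in FMOD, does not overlap the GATA match, and is found in 11.53% of all windows and in 7 of the listed genes. The T-box core motif, GGTGTGA, is in the windows of NDST1 and NDST3 and in 3.45% of all windows. A match describes the letters and not a site that is used.

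**Figure D2:**
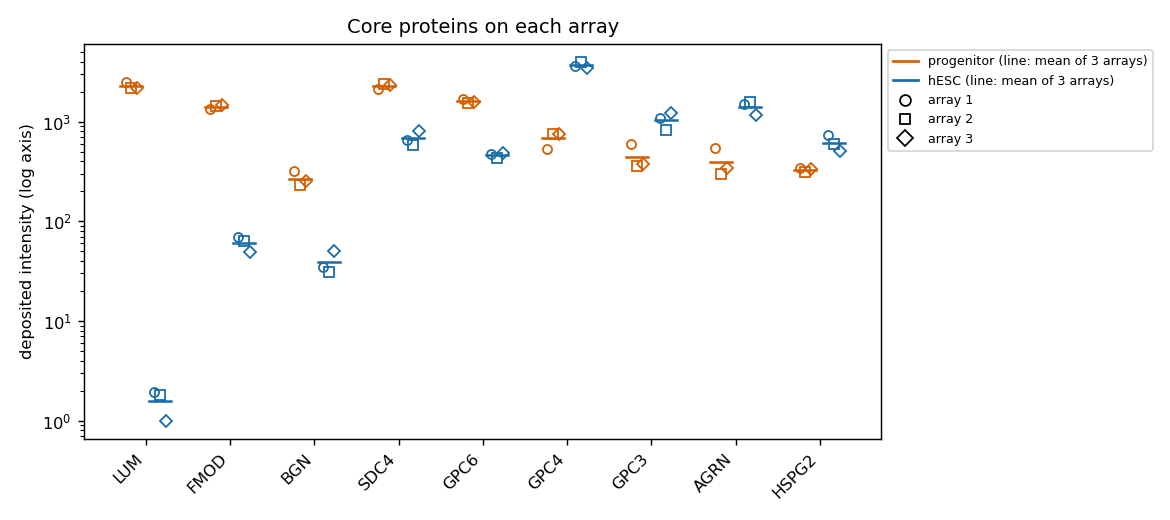
Deposited intensity on a log axis of 9 core protein genes on each of the 6 arrays, progenitor arrays left of hESC arrays for each gene; symbols give the array number and lines the mean of 3 arrays. LUM, FMOD, BGN, SDC4 and GPC6 lie higher in progenitors on every array and GPC4, GPC3, AGRN and HSPG2 lower, with HSPG2 no longer called when arrays are scaled on hybridization controls. Brightness is not comparable between genes.

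The 3 listed lecticans, which bind hyaluronan in cartilage and brain, did not pass on their brightest probe sets, although other settings called each of them. The change of aggrecan, ACAN, was -0.15 ± 0.13 (adjusted p = 0.397), that of brevican, BCAN, -0.11 ± 0.10 (adjusted p = 0.422), and that of neurocan, NCAN, 0.08 ± 0.21 (adjusted p = 0.804). All 3 had overlapping groups. NCAN was at 29.2, 60.4 and 63.8 in progenitors and 48.9, 49.9 and 51.4 in hESC, so that progenitor array 1 was the lowest of all arrays. Without that array the NCAN change was 0.33 and passed (adjusted p = 0.024). Of the ACAN probe sets, 2 that are dimmer on average stood at -1.20 and -0.51, called as lower, and 2 did not pass. ACAN passed as lower with the mean of its probe sets (-0.54) and, at -0.51, without probe sets whose names mark a possible match to several transcripts. BCAN passed as lower under median centring (-0.33), and a dimmer BCAN probe set passed at -0.67. The intracellular proteoglycan serglycin, SRGN, which fills the granules of blood cells, was at 6.75, 4.82 and 9.28 in progenitors and 6.79, 2.18 and 8.35 in hESC, with a change of 0.12 ± 0.14 (adjusted p = 0.537).

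Both heparan sulfate proteoglycans of basement membranes were lower in progenitors. Agrin, AGRN (chr1:1020120-1056116), known for clustering acetylcholine receptors at the nerve and muscle junction, was at 544, 296 and 342 in progenitors, against 1493, 1572 and 1155 in hESC. All progenitor arrays were below all hESC arrays, with array 1 the highest of the progenitor arrays. The change was -1.79 ± 0.22 (adjusted p = 0.000398), and it was -2.05 without progenitor array 1. Of the 4 AGRN probe sets 3 fell and the other did not pass. Perlecan, HSPG2, a large proteoglycan that stores growth factors in the matrix, was at 344, 309.8 and 332 in progenitors and 726, 600.2 and 512 in hESC, a change of -0.86 ± 0.13 (adjusted p = 0.000984). The dimmer HSPG2 probe set passed in the opposite direction at 0.43, and the mean of both did not pass at -0.22. Under scaling on hybridization controls HSPG2 stood at -0.31 and did not pass.

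All 4 syndecans, the transmembrane family, passed, with SDC4 and SDC3 higher and SDC1 and SDC2 lower. Syndecan 4, SDC4 (chr20:45325288-45348424), a component of focal adhesions, was at 2144, 2377 and 2332 in progenitors, against 650.3, 584 and 801 in hESC. The lowest progenitor array was above the highest hESC array, and the change was 1.79 ± 0.13 (adjusted p = 3.2e-05). Syndecan 3, SDC3, known from the nervous system, was at 1069, 729.8 and 669 in progenitors and 479, 401 and 465 in hESC. Its progenitor array 1 was the highest, and the change was 0.84 ± 0.18 (adjusted p = 0.00584), or 0.65 without that array. The mean of its probe sets did not pass at 0.29. Syndecan 1, SDC1, the main syndecan of epithelia and plasma cells, was at 536, 499 and 455 in progenitors and 913, 959 and 916 in hESC. Each group was tight and the groups were apart, with a change of -0.86 ± 0.09 (adjusted p = 0.000155). Syndecan 2, SDC2, common in mesenchymal cells, was at 733, 1048 and 1039 in progenitors and 1619, 1569 and 1822 in hESC, a change of -0.77 ± 0.17 (adjusted p = 0.00716), or -0.59 without progenitor array 1. Under scaling on hybridization controls SDC1 and SDC2 stood at -0.33 and -0.27 and did not pass. The difference SDC4 minus SDC2, taken within each array and so nearly free of array scaling, was 1.55, 1.17 and 1.15 on the log2 scale in progenitors and -1.25, -1.35 and -1.19 in hESC. This pair was chosen after its values were seen.

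Among the glypicans, which are tied to the membrane by a lipid anchor, GPC6 was higher, GPC3 and GPC4 were lower and 3 did not pass. GPC6 (chr13:93216529-94408020), mutated in the short-limb disorder omodysplasia, was at 1672, 1547 and 1564 in progenitors, against 469, 436 and 484 in hESC. The groups were apart and tight, with a change of 1.78 ± 0.08 (adjusted p = 3.6e-06), and the dimmer probe set rose by 1.49. GPC4 (chrX:133300103-133415489), known in rodents as a protein that astrocytes release to promote synapses, was at 529, 748 and 754 in progenitors, against 3583, 3962 and 3418 in hESC. Every progenitor array was below every hESC array by a wide margin, with progenitor array 1 the lowest. The change was -2.38 ± 0.16 (adjusted p = 1.8e-05), or -2.20 without that array, and the other probe set fell by 2.57. GPC3 (chrX:133535745-133985594), whose loss causes Simpson-Golabi-Behmel overgrowth syndrome, was at 594, 362 and 377 in progenitors, against 1076, 818 and 1206 in hESC. Progenitor array 1 was the highest of its group, the groups did not overlap, and the change was -1.18 ± 0.22 (adjusted p = 0.00342), or -1.41 without that array. The dimmer GPC3 probe set did not pass at -0.25.

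GPC6 minus GPC4 within an array was 1.68, 1.04 and 1.06 on the log2 scale in progenitors and -2.86, -3.09 and -2.77 in hESC, with no overlap between the groups. The sign within a group depends on the brightness of the probe sets and has no meaning. The shift of 4.17 between the groups is nearly free of array scaling, and the pair was chosen after its values were seen. The changes of GPC1, GPC2 and GPC5 were 0.04 ± 0.11 (adjusted p = 0.808), 0.21 ± 0.16 (adjusted p = 0.328) and 0.25 ± 0.13 (adjusted p = 0.17), with overlapping groups. The direction of GPC1 and GPC2 turned under median centring, to -0.09 and -0.02, and all 3 passed as higher, at 0.60, 0.57 and 0.39, under scaling on hybridization controls.

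The start windows of GPC6 and GPC4 are shown because these related genes changed in opposite directions. The GPC6 window is on the plus strand at chr13:93226557-93226856, inside the annotated span of the gene, and the GPC4 window is on the minus strand at chrX:133415440-133415739. Capitals mark CG dinucleotides.
GPC6: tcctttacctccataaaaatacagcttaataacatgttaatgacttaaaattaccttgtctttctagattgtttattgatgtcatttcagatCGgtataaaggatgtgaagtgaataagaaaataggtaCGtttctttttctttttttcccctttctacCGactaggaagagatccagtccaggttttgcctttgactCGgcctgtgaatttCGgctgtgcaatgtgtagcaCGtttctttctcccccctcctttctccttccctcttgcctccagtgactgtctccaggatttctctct
GPC4: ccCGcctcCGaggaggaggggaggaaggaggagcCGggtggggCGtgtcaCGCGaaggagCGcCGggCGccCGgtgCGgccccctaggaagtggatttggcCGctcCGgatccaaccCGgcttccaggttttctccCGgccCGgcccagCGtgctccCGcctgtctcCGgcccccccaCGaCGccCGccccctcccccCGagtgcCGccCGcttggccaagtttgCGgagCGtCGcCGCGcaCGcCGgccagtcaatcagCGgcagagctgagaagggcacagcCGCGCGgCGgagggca
The GPC6 window has 6 CG dinucleotides and 40.0% G and C, and the GPC4 window has 37 and 74.7%. TATAAA is present in the GPC6 window and not in the GPC4 window.

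Of the 3 listed enzymes of the linker, the short sugar bridge between core protein and chain, 2 were lower and 1 did not pass, whereas the 4 further linker enzymes described below were higher. Both xylosyltransferases, which place the xylose on the core protein, fell. XYLT1 (chr16:17101769-17470960) was at 136, 224 and 222 in progenitors, against 419.9, 381 and 473 in hESC. Progenitor array 1 was the lowest array, the groups did not overlap, and the change was -1.12 ± 0.19 (adjusted p = 0.00223), or -0.90 without that array. XYLT2 was at 261, 283 and 253 in progenitors and 489, 403 and 501 in hESC, a change of -0.79 ± 0.11 (adjusted p = 0.000736), and stood at -0.22, not called, under scaling on hybridization controls. B4GALT7, which adds the galactose next to the xylose, had a change of 0.11 ± 0.11 (adjusted p = 0.442), and under that scaling it passed as higher at 0.69.

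The heparan sulfate polymerase is a complex of EXT1 and EXT2, which lengthen the chain in turn and are mutated in hereditary multiple exostoses. EXT1 (chr8:117794490-118111826) was at 1394, 1329 and 1296 in progenitors, against 422, 393 and 476 in hESC. All progenitor arrays were above all hESC arrays, with a change of 1.63 ± 0.10 (adjusted p = 1.1e-05), and the other EXT1 probe sets rose by 2.10 and 0.93. EXT2 was at 1154, 926 and 995 in progenitors and 727, 686 and 879 in hESC, a change of 0.47 ± 0.13 (adjusted p = 0.0204). This call is weak. It was lost without progenitor array 1 or 3 and without hESC array 1 or 2, with changes of 0.39 to 0.49, under median centring (0.27) and with the mean of its probe sets (0.08), and the other EXT2 probe set stood at -0.30 and did not pass. EXTL2, which adds a residue that can stop the chain, was at 1615, 1813 and 1746 in progenitors and 2296, 2285 and 2195 in hESC, a change of -0.32 ± 0.08 (adjusted p = 0.016), which was lost without progenitor array 3 (-0.33) or hESC array 1 (-0.31) and turned to 0.18, not called, under scaling on hybridization controls. EXTL3, which starts the heparan sulfate chain, and EXTL1 did not pass, with changes of -0.22 ± 0.12 (adjusted p = 0.177) and -0.01 ± 0.14 (adjusted p = 0.961). EXTL3 passed as lower without progenitor array 1, at -0.33 with an adjusted p of 0.0376, and under median centring (-0.36), and both turned positive under scaling on hybridization controls, without a call.

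N-sulfation is the step that opens heparan sulfate to further changes, and none of the 3 measured N-sulfotransferase genes passed, while the epimerase GLCE fell. NDST1, the broadly expressed N-deacetylase and N-sulfotransferase, was at 726, 669.6 and 681 in progenitors and 725, 688 and 644 in hESC, with a change of 0.05 ± 0.08 (adjusted p = 0.674). Its direction turned under median centring, to -0.13, and it passed as higher at 0.57 under scaling on hybridization controls and at 0.33 with the mean of its probe sets. NDST3 and NDST4 were dim in both groups, with changes of -0.50 ± 0.20 (adjusted p = 0.0754) and 0.23 ± 0.13 (adjusted p = 0.189). NDST3 was at 6.68, 6.55 and 6.06 in progenitors and 14.1, 31.4 and 9.3 in hESC, and it passed as lower, at -0.67, without hESC array 3 and, at -0.71, under median centring. NDST4 passed as higher, at 0.35, without progenitor array 1, while its direction turned under median centring (-0.01) and with the mean of its probe sets (-0.16), neither called. The other NDST4 probe set, at 1 to 2.65 in progenitors and 6.79 to 13.1 in hESC, passed as lower at -0.55. GLCE, the epimerase that turns glucuronic into iduronic acid, was at 35.4, 37.3 and 31.4 in progenitors and 72.2, 83.4 and 65.7 in hESC. The groups were apart, with a change of -0.73 ± 0.09 (adjusted p = 0.000474).

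The O-sulfotransferases held the widest enzyme changes, and these were in the 3-O family. The 3-O-sulfate is a rare mark placed last on the chain. HS3ST1 (chr4:11393150-11434327), whose product holds the antithrombin binding site of anticoagulant heparin, was at 473, 233 and 223 in progenitors, against 22.9, 13.1 and 24.3 in hESC. The groups were far apart, and progenitor array 1 was the highest array. The change was 3.13 ± 0.28 (adjusted p = 8.7e-05), and it was 2.78 (adjusted p = 6.9e-05 in limma) without progenitor array 1, on which the endothelial and blood markers were high. The other HS3ST1 probe sets were dim and did not pass, at -0.02 and -0.32. Like BGN, HS3ST1 was not tested without probe sets whose names mark a possible match to several transcripts. HS3ST3A1 (chr17:13494032-13601929), which makes a site used by herpes simplex virus for entry, was at 1445, 1342 and 1213 in progenitors, against 89.9, 111 and 114 in hESC. The progenitor arrays were close together and all far above the hESC arrays, with a change of 3.54 ± 0.12 (adjusted p = 8.1e-07). HS3ST3B1 (chr17:14301081-14349404), whose enzyme shares a nearly identical catalytic domain with that of HS3ST3A1, was at 735, 623 and 632 in progenitors, against 134, 123 and 195 in hESC. The groups were apart, hESC array 3 was the highest of its group, and the change was 2.06 ± 0.18 (adjusted p = 7.0e-05). Its other probe sets were dim and stood at 0.16 and -0.23 without passing. Whether HS3ST3A1 RNA also binds the HS3ST3B1 probe sets was not tested. HS3ST2 (chr16:22814162-22916338), known from brain, was at 12.3, 8.9 and 10.2 in progenitors, against 47.3, 50.9 and 44.7 in hESC. Here all progenitor arrays were below all hESC arrays, and the change was -1.18 ± 0.09 (adjusted p = 2.8e-05).

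The other 3-O-sulfotransferase genes, which are outside the 54, also divided. HS3ST6 was at 101, 88.2 and 94.3 in progenitors and 39.9, 36.4 and 44.9 in hESC, a change of 1.04 ± 0.10 (adjusted p = 0.000133). HS3ST5 was at 11.3, 8.97 and 14.7 in progenitors and 51.0, 65.8 and 49.5 in hESC, a change of -1.29 ± 0.12 (adjusted p = 9.3e-05). HS3ST4 was at 29.6, 27.7 and 26.7 in progenitors and 69.5, 64.5 and 48.8 in hESC, a change of -0.70 ± 0.11 (adjusted p = 0.00128). Of the 7 genes of this family, HS3ST1, HS3ST3A1, HS3ST3B1 and HS3ST6 were thus higher and HS3ST2, HS3ST4 and HS3ST5 lower, and none of these directions turned under the scalings tried. HS3ST3A1 minus HS3ST2 within an array was 5.69, 5.79 and 5.56 on the log2 scale in progenitors and 0.77, 0.98 and 1.13 in hESC, a pair chosen after its values were seen.

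**Figure D3:**
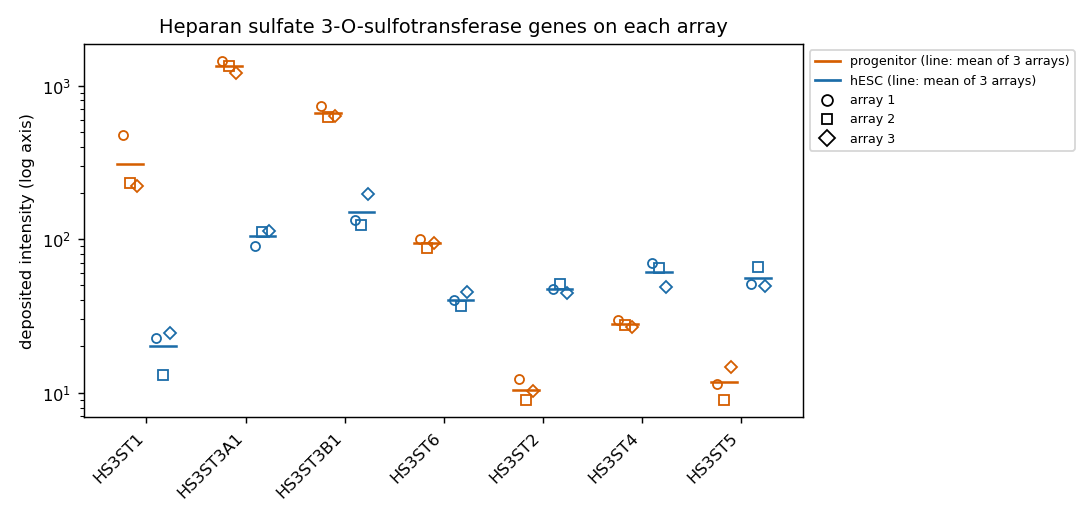
Deposited intensity on a log axis of the 7 heparan sulfate 3-O-sulfotransferase genes on each array, progenitor arrays left of hESC arrays; symbols give the array number and lines the mean of 3 arrays. In HS3ST1, HS3ST3A1, HS3ST3B1 and HS3ST6 every progenitor array lies above every hESC array, and in HS3ST2, HS3ST4 and HS3ST5 every progenitor array lies below. Brightness is not comparable between genes.

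HS3ST3A1 and HS3ST3B1 lie 699.2 kb apart on chromosome 17 and run in opposite directions, and their start windows are shown because both genes rose. The HS3ST3A1 window is on the minus strand at chr17:13601880-13602179 and the HS3ST3B1 window on the plus strand at chr17:14300831-14301130. Capitals mark CG dinucleotides.
HS3ST3A1: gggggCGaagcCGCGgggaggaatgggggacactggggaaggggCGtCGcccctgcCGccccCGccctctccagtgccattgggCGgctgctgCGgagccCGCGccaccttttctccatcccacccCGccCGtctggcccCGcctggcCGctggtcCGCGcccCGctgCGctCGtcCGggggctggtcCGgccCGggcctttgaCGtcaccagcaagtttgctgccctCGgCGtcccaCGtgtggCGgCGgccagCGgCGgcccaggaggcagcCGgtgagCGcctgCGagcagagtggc
HS3ST3B1: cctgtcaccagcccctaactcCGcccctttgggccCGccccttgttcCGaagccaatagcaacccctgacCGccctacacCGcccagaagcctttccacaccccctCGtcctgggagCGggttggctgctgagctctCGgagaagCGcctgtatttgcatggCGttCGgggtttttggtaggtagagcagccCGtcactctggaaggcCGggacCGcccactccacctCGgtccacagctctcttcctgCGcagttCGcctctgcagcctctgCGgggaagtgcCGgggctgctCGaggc
The windows have 34 and 20 CG dinucleotides and 76.3% and 65.3% G and C. Neither window holds any of the 3 motifs searched on either strand, which says only that these letters are not in these windows.

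Of the other O-sulfotransferases, HS2ST1, which sulfates iduronic acid, was at 490.5, 425 and 434 in progenitors and 233, 238 and 268 in hESC. The groups were apart, with a change of 0.80 ± 0.10 (adjusted p = 0.000367), and all 4 of its probe sets rose. HS6ST2, a 6-O-sulfotransferase, was at 354, 368 and 363 in progenitors and 271, 258 and 285 in hESC, a change of 0.36 ± 0.08 (adjusted p = 0.00941), but the mean of its probe sets did not pass at 0.15. HS6ST1 was at 957, 666 and 633 in progenitors and 726, 839.9 and 771 in hESC, so that progenitor array 1 was above and the other progenitor arrays below every hESC array. Its change was -0.03 ± 0.16 (adjusted p = 0.906), and it turned to 0.48 and passed as higher (adjusted p = 0.0158) under scaling on hybridization controls.

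Enzymes that trim the finished chain outside the cell all passed, with both sulfatases higher and heparanase lower. SULF1 (chr8:69466781-69660912), which removes 6-O-sulfates and so changes the binding of WNT, BMP and FGF proteins, was at 213, 396 and 416 in progenitors, against 39.6, 50.7 and 43.9 in hESC. The groups were far apart, and progenitor array 1 was the lowest of its group. The change was 2.55 ± 0.25 (adjusted p = 0.000131), and 2.84 without that array, and the other SULF1 probe sets rose by 2.85 and 2.05. SULF2, of the same activity, was at 1341, 949 and 993 in progenitors and 725, 928 and 753 in hESC, a change of 0.49 ± 0.15 (adjusted p = 0.0327). The SULF2 call was lost without progenitor array 1 (0.34), hESC array 1 (0.42) or hESC array 3 (0.46), and under median centring (0.28). It was also lost with no scaling between arrays (0.43) and with a pseudocount of 1 (0.50). The other, dimmer SULF2 probe set passed as higher at 0.74. HPSE (chr4:83292461-83335153), heparanase, which cuts the chains, was at 26.8, 35.4 and 31.8 in progenitors, against 78.2, 93.3 and 102 in hESC. All progenitor arrays were below all hESC arrays, with a change of -1.10 ± 0.13 (adjusted p = 0.000293), and the other probe set fell by 0.62. SULF1 minus HPSE within an array was 2.32, 2.96 and 3.13 in progenitors and -0.78, -0.75 and -1.01 in hESC on the log2 scale, again a pair chosen after its values were seen.

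Of the chondroitin and dermatan sulfate enzymes 5 of 8 were higher, 2 were lower and CHST15 did not pass. CHSY3 (chr5:129903979-130186634), a chondroitin polymerase, was at 78.4, 67.6 and 68.1 in progenitors, against 14.3, 17.2 and 12.8 in hESC. The groups were apart and tight, with a change of 1.57 ± 0.09 (adjusted p = 7.7e-06). CHST11 (chr12:104456948-104762014), the main chondroitin 4-O-sulfotransferase of developing cartilage in mouse, was at 229, 203 and 202 in progenitors, against 95.0, 75.5 and 112 in hESC. All progenitor arrays were above all hESC arrays, with a change of 1.06 ± 0.15 (adjusted p = 0.000849), and the other probe sets rose by 0.84 and 1.72. CHST7 (chrX:46573765-46598496), a 6-O-sulfotransferase, was at 149, 101 and 107 in progenitors, against 518, 504 and 579 in hESC. All progenitor arrays were below all hESC arrays, with a change of -2.04 ± 0.14 (adjusted p = 1.9e-05). Within an array, CHST11 minus CHST7 was 0.56, 0.87 and 0.80 on the log2 scale in progenitors and -2.30, -2.56 and -2.20 in hESC, also a pair chosen after its values were seen.

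The remaining chondroitin genes changed less. CHSY1, also a polymerase, was at 2167, 1796 and 1758 in progenitors and 1326, 1586 and 1424 in hESC, a change of 0.47 ± 0.11 (adjusted p = 0.0108), which did not pass at 0.25 under median centring. CHST3, a 6-O-sulfotransferase like CHST7, was at 183, 143 and 142 in progenitors and 93.9, 85.0 and 136 in hESC, a change of 0.53 ± 0.19 (adjusted p = 0.0488). Its call was lost without any 1 of the progenitor arrays (0.43 to 0.57) and without hESC array 1 (0.47) or 2 (0.39), and with the mean of its probe sets (0.27). CHST12, a 4-O-sulfotransferase, had probe sets called in opposite directions. The brighter one was at 393, 351 and 382 in progenitors and 271, 219 and 277 in hESC, a change of 0.50 ± 0.11 (adjusted p = 0.00794), and the other was at 85.4, 78.2 and 84.9 in progenitors and 239.6, 235.7 and 182.2 in hESC, a change of -1.24. The mean of both passed as lower, at -0.37. DSE, the epimerase that makes dermatan sulfate, was at 603, 791 and 769 in progenitors and 923, 1039.8 and 998 in hESC, a change of -0.40 ± 0.13 (adjusted p = 0.0367). The DSE call was lost without progenitor array 1 (-0.27) or 3 (-0.46) and without any 1 of the hESC arrays (-0.37 to -0.45), the mean of its probe sets did not pass at -0.16, and the value turned to 0.10, not called, under scaling on hybridization controls. CHST15, which makes disulfated chondroitin, had a change of 0.09 ± 0.09 (adjusted p = 0.455), with a turn to -0.01 under median centring and a call as higher at 0.67 under scaling on hybridization controls, while a dimmer CHST15 probe set passed as lower at -0.30.

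Progenitor array 1 differed from the mean of progenitor arrays 2 and 3 by at least 0.5 on the log2 scale in 10 of the 53 genes. It was higher in HS3ST1 (0.99), AGRN (0.74), GPC3 (0.66), SDC3 (0.59) and HS6ST1 (0.53). It was lower in SULF1 (-0.94), NCAN (-0.78), XYLT1 (-0.67), SDC2 (-0.54) and GPC4 (-0.54). FMOD, LUM, GPC6, EXT1 and HS3ST3A1 are not among the 10. On the same scale the 8 endothelial and blood markers were higher on array 1 by 0.05 to 3.00. Without array 1, 21 of the 53 genes were higher in progenitors and 14 lower, beside 5011 higher and 3990 lower of all 19775 genes. Among the higher genes EXT2, SULF2 and CHST3 then lost their call, and NCAN and NDST4 gained one. The part of endothelial cells in the genes that were high on array 1 was not tested. On hESC array 2 the collagen gene COL3A1 was at 182, against 57.5 and 24.9 on the other hESC arrays. Of the same fibroblast list COL1A1, COL1A2 and S100A4 were higher on hESC array 2 than on arrays 1 and 3 averaged, by 0.26, 0.42 and 0.77 on the log2 scale. The rest of that list was lower there, with POSTN at -0.24, PDGFRB at -0.14, THY1 at -0.13 and FAP at -0.08, so the list did not move as a whole. LUM, FMOD and BGN differed on hESC array 2 by 0.02, 0.03 and -0.38, and the part of fibroblasts in the changes was not tested.

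**Figure D4:**
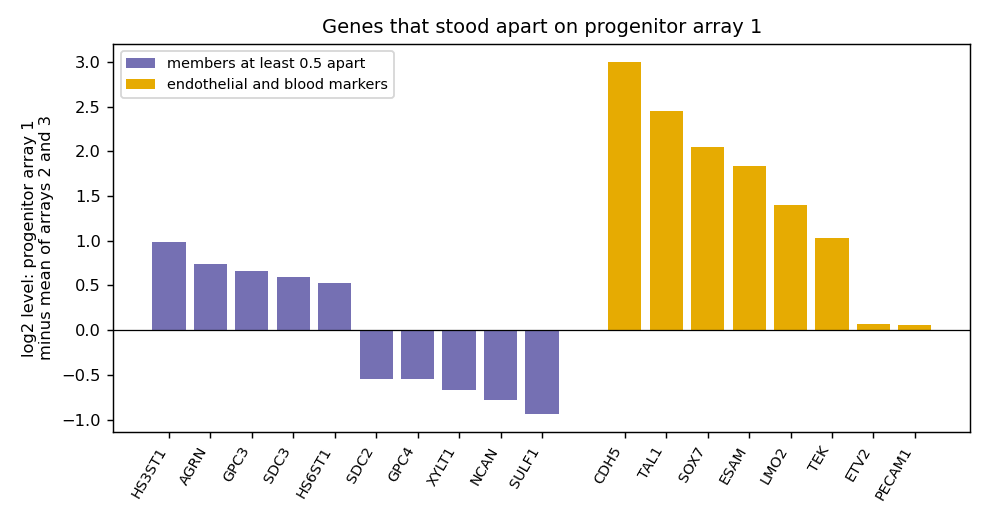
Log2 level on progenitor array 1 minus the mean of progenitor arrays 2 and 3, for the 10 listed genes at least 0.5 apart (purple) and the 8 endothelial and blood markers (yellow); bars start at 0 and each is 1 gene with no error. HS3ST1 at 0.99 and SULF1 at -0.94 are the extremes of the listed genes, and CDH5 at 3.00 is the highest marker.

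Of the 53 genes, 39 had several probe sets on the array, and in HSPG2 and CHST12 some passed in opposite directions. In 7 genes whose brightest probe set did not pass, another probe set passed, among them PRELP as given above. The dimmer GPC1 probe set rose by 0.56 and the mean of both by 0.30.

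**Figure D5:**
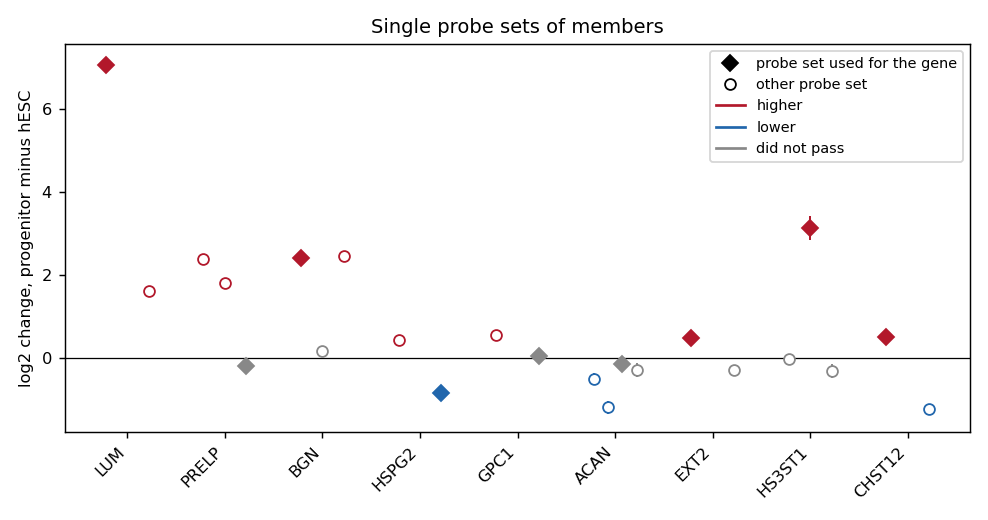
Log2 change, progenitor minus hESC, of every probe set of 9 listed genes chosen after their values were seen; filled diamonds are the probe sets used for the gene, open circles the others, bars standard errors over 3 arrays a group, and colour the call in limma over all probe sets. In PRELP the probe set in use lies at -0.21 and the others at 2.38 and 1.81, and in HSPG2 and CHST12 the probe sets are called in opposite directions.

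Some of the 53 genes are neighbours, at most 1 Mb apart, and neighbours did not always change alike. LUM and DCN are 29.0 kb apart on chromosome 12, with LUM at 7.06 and DCN at 0.77. OGN and ASPN are 51.5 kb apart on chromosome 9, with OGN at 0.89 and ASPN at 0.23, which did not pass. FMOD and PRELP are 124.7 kb apart on chromosome 1, with FMOD at 4.31 and PRELP at -0.21 on its brightest probe set. On the other PRELP probe sets the gene rose as FMOD did, by 2.38 and 1.81, so this pair depends on the probe set. GPC4 and GPC3 are 120.3 kb apart on the X chromosome and both fell, while HS6ST2, 338.7 kb from GPC4, stood at 0.36. GPC5 and GPC6 are 349.3 kb apart on chromosome 13, with GPC5 at 0.25, which did not pass, and GPC6 at 1.78.

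A wider list of 58 genes of the same pathways was read beside the 54. Of these 55 were measured, 21 higher, 21 lower and 13 not passing, a called share of 76.4% beside 47.8% of all genes. The others are not analysed here. The other core proteins had 4 of 19 higher and 8 lower. TGFBR3, the TGF-beta co-receptor betaglycan, rose by 1.93 ± 0.20, and the testican SPOCK3 by 1.46 ± 0.16. CSPG4, the chondroitin sulfate proteoglycan NG2 of pericytes, rose by 0.88 ± 0.11. The brain phosphatase PTPRZ1 fell by 3.40 ± 0.10, CSPG5 by 2.46 ± 0.12 and the testican SPOCK1 by 1.90 ± 0.13. Podocan, PODN, stood at 0.08 ± 0.14 and did not pass, and its direction turned under median centring (-0.17) and without scaling between arrays (-0.02).

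The 4 other linker enzymes were all higher, unlike XYLT1 and XYLT2, among them the xylose phosphatase PXYLP1 by 0.92 ± 0.08, the galactosyltransferase B3GALT6 by 0.63 ± 0.08 and the xylose kinase FAM20B by 0.42 ± 0.09. FAM20B did not pass at 0.23 under median centring. Of the other heparan sulfate enzymes HS6ST3 fell by 0.84 ± 0.14, and HPSE2 stood at 0.28 ± 0.12 and did not pass. Of 8 other chondroitin and dermatan sulfate enzymes 2 were higher and 2 lower. CHST14, the dermatan 4-O-sulfotransferase, rose by 1.30 ± 0.12 and CSGALNACT1, which starts the chondroitin chain, by 1.01 ± 0.16. The 4-O-sulfotransferase CHST13 fell by 1.31 ± 0.15 and the epimerase DSEL by 0.71 ± 0.18. DSEL did not pass without hESC array 2 (-0.66) or, at -0.15, under scaling on hybridization controls. UST stood at 0.32 ± 0.14 and did not pass, but passed at 0.47 without progenitor array 1.

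Genes that supply sugar and sulfate donors all passed, 6 of 9 higher and 3 lower. PAPSS1, which makes the sulfate donor PAPS, rose by 1.41 ± 0.08, and PAPSS2, its close relative, fell by 0.51 ± 0.08. The nucleotide sugar transporters SLC35D2 and SLC35D1 rose by 1.48 ± 0.11 and 0.87 ± 0.10. UGP2, which makes UDP-glucose, fell by 1.06 ± 0.08, and UXS1, which makes the UDP-xylose used by XYLT1 and XYLT2, fell by 0.46 ± 0.09. PAPSS2 and UXS1 both turned to 0.03, not called, under scaling on hybridization controls, and PAPSS2 did not pass with the mean of its probe sets (-0.28).

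Lysosomal breakdown genes had 4 of 10 higher and 5 lower. HGSNAT, which acetylates heparan sulfate before its cleavage, rose by 2.54 ± 0.09, the 4-sulfatase ARSB by 1.95 ± 0.10 and SUMF2 by 0.98 ± 0.12. ARSB did not pass, at 0.20, without probe sets of that kind. SUMF1, which activates sulfatases, fell by 0.59 ± 0.10, GALNS by 0.42 ± 0.14 and the iduronidase IDUA by 0.36 ± 0.09. NAGLU stood at -0.17 ± 0.16 and did not pass, but passed at -0.34 without hESC array 2. Under scaling on hybridization controls GALNS, IDUA and NAGLU turned to 0.15, 0.03 and 0.40, not called, and SUMF1 stood at -0.02. The GALNS call was lost without progenitor array 2 or 3 or hESC array 1 or 2 (-0.35 to -0.43), and the IDUA call without progenitor array 2 or 3 (-0.32 and -0.35). With the mean of its probe sets IDUA stood at -0.0018 and did not pass.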

How the data were processed

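The deposited values are intensities of the 54675 probe sets of 6 arrays, linear as the values themselves show. Per the labels' protocols, RNA was extracted with a micro column kit and biotinylated cRNA was made with an amplification kit. How the authors summarised, corrected and scaled the probe sets is not given in the sources used here. A share of 2.15% of the deposited intensities equalled 1 and 19 values were below 1. Precision is limited by having 3 arrays in each group.

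Probe sets annotated to 1 gene (41097) were kept, and 41043 symbols were updated through their gene identifier. The 62 array controls were left out. On the deposited intensities log2(intensity + 16) was taken, followed by quantile normalization, and the brightest probe set on average stood for each of 19775 genes. Groups were compared with lmFit and eBayes of limma 3.58.1 (R 4.3.3), two-sided, with Benjamini-Hochberg adjustment over all genes, a call at an adjusted p under 0.05 and no covariate. The fit was also run on simulated data with independent noise on each array. Such data cannot show how it performs with an array that stands apart or with technical repeats. Single probe sets were adjusted over all probe sets. Start windows are those of a RefSeq table on GRCh38.p14. Python 3.11.15 with matplotlib 3.10.9 drew the figures.

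The listed genes, the wider list of pathway genes and the marker lists were chosen with earlier results of these data known. All listed genes are named. Of each wider list the 3 widest called changes in each direction and the brightest gene that did not pass are named. Per-array values are given for the called genes among the 53 with a change of at least 2-fold whose groups did not overlap, among others. Alternatives were other pseudocounts, scalings, filters, probe set choices and variance models, a replicate block, a stricter threshold and leaving out each array. Scaling on hybridization controls used bioB, bioC and bioD.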

Additional observations from a re-analysis of the deposited data

How the results depend on the processing

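With 20 alternatives, 22 of the 36 called genes kept their call and direction wherever they were tested, and 14 lost the call or turned in at least 1 of them (DCN, HSPG2, SDC1, SDC2, SDC3, XYLT2, EXT2, EXTL2, HS6ST2, SULF2, CHSY1, CHST3, CHST12 and DSE). The count of higher genes was 16 to 30, beside 22. That of lower genes was 11 to 18, beside 14, except under scaling on hybridization controls, where 8 were lower. Not all 53 genes were tested each time. With the dimmest 30% or 50% left out 46 and 36 were tested, and none of them changed its call. Without probe sets named as possibly matching more than 1 transcript 47 were tested. Of all genes tested, 3775 to 9405 were higher and 3079 to 6436 lower, except 1861 lower under scaling on hybridization controls. The causes of these differences were not tested. Of the wider pathway list 29 to 45 genes were called, beside 42 of the 55 measured. This range too includes the settings that tested fewer genes. The calls among all 19775 genes also moved, from 3940 higher and 3091 lower at an adjusted p under 0.01 to 6891 and 5670 with array weights. Leaving out each array gave 19 to 21 higher and 12 to 14 lower, beside 4390 to 5288 higher and 3511 to 4052 lower of all 19775 genes. The share of higher genes among all called genes was 55.8%, and 37.3% with median centring, 51.8% with no scaling and 83.5% with hybridization controls, while the median change of all genes was 0.04, -0.15, 0.0005 and 0.35. The replicate block gave 20 higher and 14 lower, beside 4956 and 3929 of all genes. It ended the calls of SULF2 (adjusted p = 0.0563 in limma) and CHST3 (adjusted p = 0.0505 in limma). Same-numbered samples correlated at -0.02, 0.03 and -0.04 in their deviations from the group means, so the numbers show no pairing.

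Some changes turned in sign. CHST12 was called in both directions. So was PRELP, as lower under median centring (-0.32, adjusted p = 0.0366 in limma) and as higher with the mean of its probe sets. HS6ST1 under scaling on hybridization controls gained a call with the turn, while the others were not called after it. Under scaling on hybridization controls the changes were 0.37 for PRELP, 0.19 for ACAN, 0.27 for BCAN, 0.13 for EXTL1, 0.18 for EXTL2, 0.34 for EXTL3, 0.48 for HS6ST1, 0.10 for DSE, 0.0333 for PAPSS2, 0.0271 for UXS1, 0.15 for GALNS, 0.0275 for IDUA and 0.40 for NAGLU. Under median centring they were -0.17 for NCAN, -0.0861 for GPC1, -0.0214 for GPC2, -0.0652 for SRGN, -0.13 for NDST1, -0.0102 for NDST4, -0.0142 for CHST15 and -0.17 for PODN, and with no scaling -0.0223 for NCAN and -0.0183 for PODN. With the mean of all probe sets they were 1.33 for PRELP, -0.16 for NDST4, 0.0843 for HS6ST1, -0.37 for CHST12, -0.11 for CHST15 and 0.0101 for NAGLU. Without probe sets named as possibly matching more than 1 transcript they were -0.18 for DCN, -1.24 for CHST12 and 0.19 for NAGLU. With array weights they were -0.0575 for ASPN, 0.0503 for ACAN, 0.17 for EXTL1, -0.0236 for NDST1 and -0.0682 for PODN. With progenitor arrays 2 and 3 averaged they were -0.0545 for NCAN, -0.0002 for GPC1 and 0.0598 for HS6ST1. Leaving out each array gave -0.0722 to 0.33 for NCAN, -0.0173 to 0.12 for GPC1, -0.0093 to 0.20 for SRGN, -0.14 to 0.11 for EXTL1, -0.21 to 0.0801 for HS6ST1 and -0.028 to 0.20 for PODN.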
